A study of Homo sapiens with 6 samples.

Results

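FCAMR, which encodes an Fc receptor for IgA and IgM, lies on the long arm of chromosome 1 in a row of genes for immunoglobulin receptors, cytokines and complement regulators, and its RNA was nearly lost from HK2 cells exposed to TGF-β1. The genes described here are FCAMR and 9 neighbours, namely PIGR, FCMR, IL24, C1orf116, YOD1, PFKFB2, C4BPA, C4BPB and CD55, taken by name from the chromosome 1 entries of the gene tables. They are 10 of 41497 named entries. FCAMR was chosen by its fall in this very contrast, so its values are given as a description without a test, and the comparison asks whether the genes beside it were lower too.

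HK2 is a cell line made from the proximal tubule of an adult human kidney by immortalisation, labelled here as genotype WT. The 3 control libraries came from untreated cells and the 3 TGF-β1 libraries from cells exposed to TGF-β1 for 24 h. Maintenance medium was DMEM-F12 with fetal bovine serum according to the labels, whereas the study's general protocol used serum-free medium during TGF-β exposure. The TGF-β1 dose of these libraries, and whether their controls were also without serum, were not given in the sources used here. Nothing in the labels says that the libraries came from separate cultures, so every p-value measures only the spread between these libraries, which may be technical.

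Polymeric immunoglobulin receptor, the product of PIGR, carries dimeric IgA and pentameric IgM across epithelial cells from the basolateral to the luminal side, where its cleaved ectodomain leaves as secretory component. FCAMR and FCMR encode other receptors that bind the Fc part of IgM, FCAMR also that of IgA, and the 3 receptors share related immunoglobulin-like domains. CD55 and the C4b-binding protein encoded by C4BPA and C4BPB restrain the complement cascade, and belong to the cluster of complement regulator genes on the same chromosome arm.

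Poly(A) RNA was sequenced, and reads were counted per gene. The libraries held 21938622 to 26906067 counts. A level is given in CPM, the counts of a gene set against the library's total in megacounts after scaling for composition by TMM, a trimmed mean of ratios between libraries. For comparison between genes it is given in TPM, in which counts are first divided by gene length. Changes are log2 fold changes of TGF-β1 against control from edgeR's quasi-likelihood fit over 14860 genes that passed a filter on low counts. Their SE was derived as the size of the log2 fold change divided by the square root of its F statistic. It can be too small where few reads remain. DESeq2, another count model, gave 0.23 for FCAMR, 0.79 for PIGR and 0.94 for IL24, against 0.11, 0.32 and 0.49 here. For PFKFB2 it gave 0.13 against 0.16. A gene was called when its Benjamini-Hochberg adjusted p, over all genes tested, was below 0.05. The library of TGF-β1 replicate 1 stood somewhat apart: per gene, its chi-square distance from the other TGF-β1 libraries was 17.1 and 18.5, against 4.28 to 5.95 in the other pairs within a group. Of 12 proximal tubule markers 10 were read, and their summed level was 313.1 to 347.3 CPM in control and 196.2 to 228.6 CPM with TGF-β1, mostly from the tubular transcription factor PAX8, with 28460 reads in all. The markers did not move as a set: 6 were tested, with 3 called lower and 2, AQP1 and CUBN, called higher. Over all genes tested, 22.1% were called lower and 22.2% higher. The transporter gene SLC22A6 and the endocytic receptor gene LRP2, both defining for proximal tubule, had no read in any library.

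The promoters of the genes that were lower by about 9-fold or more are shown first, since they lie beside each other and are where shared sequence would be looked for. Each run holds 250 bases before and 50 after an annotated start, 5′ to 3′ on the strand of the gene, from RefSeq on GRCh38.p14. Capitals mark the SMAD binding element CAGAC, the AP-1 motif TGANTCA and the E-box CACCTG bound by ZEB and SNAIL factors, on either strand.
FCAMR chr1:206970411-206970710, minus strand: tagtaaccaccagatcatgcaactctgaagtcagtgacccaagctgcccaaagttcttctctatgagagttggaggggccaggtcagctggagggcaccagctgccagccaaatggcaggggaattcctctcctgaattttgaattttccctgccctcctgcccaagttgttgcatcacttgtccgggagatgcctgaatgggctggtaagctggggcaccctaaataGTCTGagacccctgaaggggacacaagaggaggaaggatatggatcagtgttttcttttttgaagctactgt
FCAMR second start chr1:206967054-206967353, minus strand: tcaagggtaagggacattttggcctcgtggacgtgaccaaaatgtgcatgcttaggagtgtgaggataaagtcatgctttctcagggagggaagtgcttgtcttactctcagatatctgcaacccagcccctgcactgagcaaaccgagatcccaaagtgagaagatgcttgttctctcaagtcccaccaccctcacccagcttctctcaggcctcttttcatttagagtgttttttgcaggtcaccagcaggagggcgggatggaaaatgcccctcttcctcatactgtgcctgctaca
PIGR chr1:206946417-206946716, minus strand: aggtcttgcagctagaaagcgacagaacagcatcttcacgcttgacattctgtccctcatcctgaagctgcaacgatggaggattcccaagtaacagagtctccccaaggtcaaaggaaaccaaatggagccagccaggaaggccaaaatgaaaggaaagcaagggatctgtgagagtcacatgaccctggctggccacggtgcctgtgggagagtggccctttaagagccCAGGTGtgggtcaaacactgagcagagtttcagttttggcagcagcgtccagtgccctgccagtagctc
IL24 chr1:206897193-206897492, plus strand: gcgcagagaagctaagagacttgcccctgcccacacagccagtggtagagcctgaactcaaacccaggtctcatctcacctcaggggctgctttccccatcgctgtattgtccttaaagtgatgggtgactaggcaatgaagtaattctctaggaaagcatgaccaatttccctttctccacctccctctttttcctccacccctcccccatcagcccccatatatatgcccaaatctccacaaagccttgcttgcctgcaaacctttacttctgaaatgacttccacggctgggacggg
FCMR chr1:206921892-206922191, minus strand: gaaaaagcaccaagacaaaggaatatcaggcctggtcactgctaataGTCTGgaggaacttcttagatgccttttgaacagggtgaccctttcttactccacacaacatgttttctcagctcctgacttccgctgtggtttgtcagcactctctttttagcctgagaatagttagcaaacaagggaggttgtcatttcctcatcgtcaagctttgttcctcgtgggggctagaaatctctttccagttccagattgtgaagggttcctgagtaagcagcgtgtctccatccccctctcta
FCMR second start chr1:206923147-206923446, minus strand: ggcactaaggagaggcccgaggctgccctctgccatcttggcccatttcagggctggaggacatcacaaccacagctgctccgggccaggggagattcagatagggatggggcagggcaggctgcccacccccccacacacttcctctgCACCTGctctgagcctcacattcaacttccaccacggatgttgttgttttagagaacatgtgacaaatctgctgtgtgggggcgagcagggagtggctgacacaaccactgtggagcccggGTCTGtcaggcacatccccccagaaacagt
C1orf116 chr1:207032707-207033006, minus strand: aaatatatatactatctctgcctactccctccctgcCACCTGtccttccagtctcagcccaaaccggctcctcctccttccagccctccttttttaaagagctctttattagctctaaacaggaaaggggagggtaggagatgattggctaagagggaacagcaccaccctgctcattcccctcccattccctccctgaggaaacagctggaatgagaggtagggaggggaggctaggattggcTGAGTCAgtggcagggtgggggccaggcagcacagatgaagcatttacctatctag

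The start of FCAMR at the far end of the gene held 1 CAGAC match on the other strand, at position -22 from the start, and its second start held none of the marked motifs. PIGR held a CACCTG match on the other strand, at position -19. FCMR held a CAGAC match on the other strand at each of its starts, at position -203 and at position 20, and at its second start also CACCTG at position -101. C1orf116 held the AP-1 motif at position -6 and CACCTG at position -214, while the IL24 promoter held none of the 3. Across 13 promoters of 9 of the genes (PFKFB2 had no entry), CAGAC was present in 5, against 45.3% of 35116 promoters in the table. TGANTCA was in 2 of the 13, against 7.71% of all promoters, and CACCTG in 3, against 20.6%. GGGCGG, a motif of SP and KLF factors, was in 3 of the 13 and in 45.0% of all, and neither CACGTG, the E-box of USF factors, nor the palindrome GTCTAGAC, a SMAD element, matched in any of the 13, against 7.26% and 0.202% of all promoters. No searched motif is contained in another. These matches describe letters in the windows and are not shown binding sites.

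All 3 immunoglobulin receptor genes were lower with TGF-β1, FCAMR and PIGR to near absence and FCMR to a lesser degree. FCAMR (chr1:206957955-206970657 on hg38, minus strand) had 936, 1086 and 996 counts in the control libraries and 23, 15 and 13 in the TGF-β1 libraries, or 41.5, 44.4 and 42.4 CPM against 0.883, 0.620 and 0.621 CPM. Every TGF-β1 library was far below every control library, and a few reads remained in each. The log2 fold change was -5.89 ± 0.11 (SE, n = 3 per group), or 59.4-fold lower. Counting reads alone, the ratio of the groups was 59.7-fold, with a 95% exact binomial interval of 45.3 to 80.4 that covers counting error only. In bulk RNA, fewer cells expressing a gene and less of its RNA per cell cannot be told apart, here and for every gene below.

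PIGR (chr1:206928522-206946466, minus strand) started 24.2 kb from the start of FCAMR. The control libraries held 64, 95 and 85 PIGR counts and the TGF-β1 libraries 1, 1 and 2, or 2.84, 3.88 and 3.62 CPM against 0.0384, 0.0414 and 0.0955 CPM. PIGR was thus a low but reproducible transcript in control cells, and it was almost unread in all TGF-β1 libraries. It fell by 5.81 ± 0.32 on the log2 scale (SE, adjusted p = 1.37e-07 by edgeR), and the read ratio was 61.6-fold lower with a counting interval of 23.7 to 228. That interval contains the one of FCAMR, so the falls of the 2 receptors were not separable at this depth.

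FCMR (chr1:206903282-206922001, minus strand), the Fc receptor for IgM best known from lymphocytes, had 173, 185 and 158 counts in control and 25, 18 and 13 with TGF-β1. Its CPM were 7.67, 7.56 and 6.73 against 0.960, 0.745 and 0.621, again with no overlap between the groups. FCMR fell by 3.22 ± 0.18 on the log2 scale (SE, adjusted p = 1.28e-07 by edgeR), or 9.31-fold. Its counting interval, 7.05 to 12.5-fold lower, lay below that of FCAMR. Among genes that define B cells, MS4A1 and PAX5 had no read in any library, and CD79A and CD79B had 4 and 5 reads over all libraries. CD22, a sialic acid-binding receptor of B cells, was read, however, with 2.13, 2.29 and 2.56 CPM in control and 0.653, 0.620 and 0.478 CPM with TGF-β1. The groups of CD22 did not overlap, and like FCMR it fell, by 1.98 ± 0.21 on the log2 scale (SE, adjusted p = 2.49e-05 by edgeR). Over the whole list of 8 B and plasma cell markers the summed level was 111.3 to 124.8 CPM in control and 183.9 to 196.0 CPM with TGF-β1, nearly all from SDC1, which epithelial cells also express and which had 21706 reads in all. T cell and myeloid markers summed to 6.99 to 7.71 CPM in control and 24.2 to 27.4 CPM with TGF-β1, mostly from CSF1R, with CD3D, CD3E, CD2 and CD163 unread. Of the 10 in that list 2 were tested and went opposite ways. CSF1R was called higher, at 2.55 ± 0.09 on the log2 scale, and CD14 lower, at -1.72 ± 0.25 (SE). The part of these markers in the falls was not tested.

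IL24 (chr1:206897404-206904139, plus strand), a secreted cytokine of the IL-20 subfamily, had 43, 34 and 58 counts in control and 1, 2 and 0 with TGF-β1. In CPM these were 1.91, 1.39 and 2.47 against 0.0384, 0.0827 and 0. The groups did not overlap, and the 3 control libraries differed from each other more than for the receptors. IL24 fell by 5.35 ± 0.49 on the log2 scale (SE, adjusted p = 7.60e-06 by edgeR). From the 135 and 3 reads the ratio was 45.4-fold lower, with a counting interval of 15.2 to 223. IL24 and FCMR lie on opposite strands and share 858 exonic bases, 42.5% of the exonic length of IL24 and 28.1% of that of FCMR. Whether counting used strand was not given in the sources used here, so the split of reads between IL24 and FCMR is uncertain.

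C1orf116 (chr1:207018521-207032761, minus strand), the androgen-regulated gene also called SARG, lies on the other side of FCAMR, 62.1 kb away between starts. It had 310, 381 and 364 counts in control and 42, 36 and 29 with TGF-β1, or 13.7, 15.6 and 15.5 CPM against 1.61, 1.49 and 1.39 CPM. All TGF-β1 libraries were low and close to each other. C1orf116 fell by 3.31 ± 0.12 on the log2 scale (SE, adjusted p = 5.63e-09 by edgeR), or 9.93-fold. Its counting interval of 8.15 to 12.3-fold overlapped that of FCMR, and both lay below the intervals of FCAMR, PIGR and IL24. By counting error alone, the 5 genes thus formed a steeper trio of FCAMR, PIGR and IL24 and a pair at close to 10-fold. The places of IL24 and FCMR in this grouping rest on the uncertain split of their reads.

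Beyond C1orf116 the falls were much smaller. YOD1 (chr1:207043849-207053116, minus strand), an OTU-type deubiquitinase that works with the ATPase VCP, had 209.8, 206.1 and 207.4 CPM in control and 105.6, 133.6 and 133.9 CPM with TGF-β1. The control libraries hardly differed, the TGF-β1 libraries were all lower, and replicate 1 was the lowest. YOD1 fell by 0.74 ± 0.08 on the log2 scale (SE, adjusted p = 5.80e-05 by edgeR), or 1.67-fold, and without TGF-β1 replicate 1 by 0.65 ± 0.04. PFKFB2 (chr1:207053063-207081027, plus strand), a bifunctional enzyme that makes and breaks down fructose 2,6-bisphosphate, had 60.2, 57.1 and 58.0 CPM in control and 19.5, 29.7 and 29.5 CPM with TGF-β1. It too was lower in every TGF-β1 library and lowest in replicate 1. PFKFB2 fell by 1.159 ± 0.16 on the log2 scale (SE, adjusted p = 0.00098 by edgeR), or 2.23-fold, and without TGF-β1 replicate 1 by 0.99 ± 0.06, just under 2-fold. These 2 genes overlap at their starts on opposite strands by 54 exonic bases, under 1% of either.

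None of the 3 complement regulators at the far end was called lower. CD55 (chr1:207321674-207360966, plus strand), the decay-accelerating factor of the cell surface, had 66.9, 68.7 and 66.7 CPM in control and 74.1, 71.2 and 69.9 CPM with TGF-β1. The TGF-β1 libraries lay just above the control libraries, but the difference of 0.09 ± 0.05 on the log2 scale (SE, adjusted p = 0.198 by edgeR) was not called, and it changed sign, to -0.0185, when libraries were scaled by total counts alone. C4BPB had 4, 5 and 9 counts in control and 4, 4 and 5 with TGF-β1, and C4BPA had 2 counts in a single control library. Both were under the count filter and had overlapping groups, and their exact two-sided permutation p-values over libraries were 0.5 and 1, where the smallest that 3 against 3 libraries allow is 0.1. The read ratio of C4BPB, TGF-β1 to control, was 0.716 with a counting interval of 0.322 to 1.55, so neither a fall nor a rise was detectable at this depth.

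**Figure D1:**
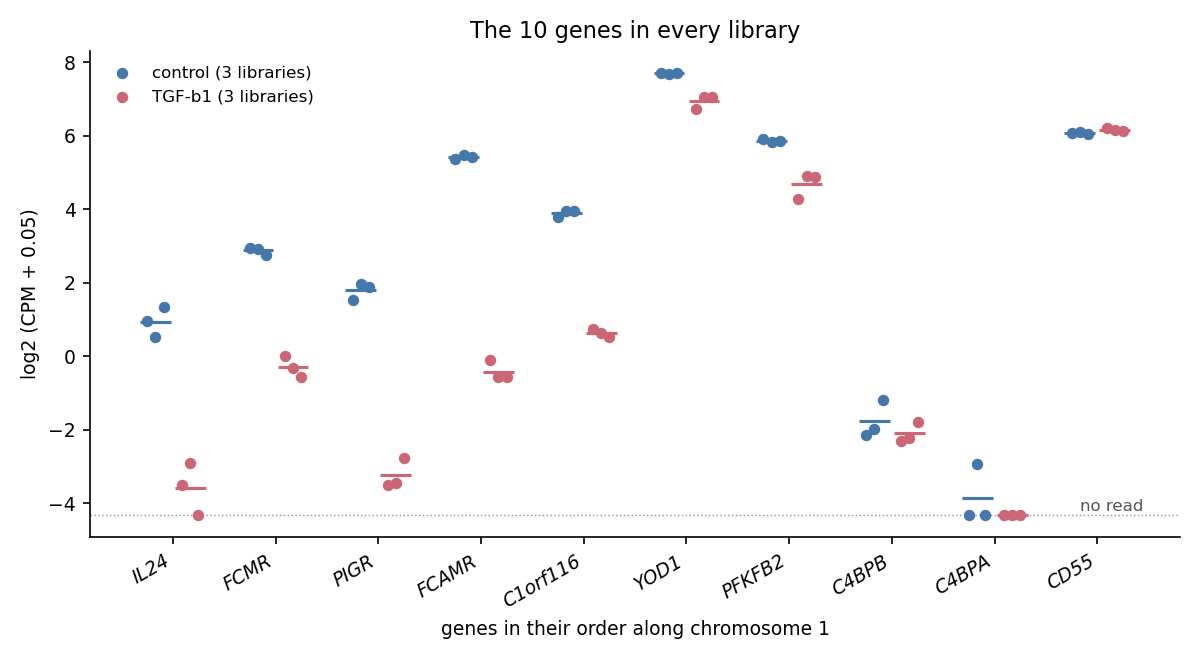
Points show log2 (CPM + 0.05) of each of the 10 genes in the 3 control libraries (blue) and the 3 TGF-β1 libraries (red), and lines the group means on that scale, with genes in chromosomal order. The 5 genes from IL24 to C1orf116 are widely separated, YOD1 and PFKFB2 by less, and C4BPB, C4BPA and CD55 differ little, with libraries without a read drawn on the dotted line.

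Of the 9 genes other than FCAMR, 7 were tested, 6 were called lower and 5 of these were lower at least 2-fold, while over all genes tested 22.1% were called lower and 5.38% were called lower at least 2-fold. In 6 of the 7 tested every TGF-β1 library was below every control library, a pattern of 27.7% of all genes tested. Since the genes were listed with earlier results of these data known, these counts are a description. The other named entries within 1 Mb of FCAMR were therefore counted apart, whatever their values. Of 38 such entries, 10 had no read, 18 had reads but were under the filter and 10 were tested. Of those, 7 were called lower, 2 of them at least 2-fold, 1 was called higher, against 22.2% of all genes tested, and 2 were not called. The median log2 fold change over the 10 was -0.32, and over all genes tested 0.0063.

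The log2 fold changes of those 10 ranged from -1.36 to 0.55, and the 2 that were lower at least 2-fold were RASSF5 and RAB7B. RASSF5, which encodes a Ras-binding adaptor of lymphocyte adhesion and cell death signalling, lies 368.5 kb from FCAMR, measured between the gene bodies, and fell from 9.07 ± 0.69 to 3.52 ± 0.32 CPM (SD, n = 3), a log2 fold change of -1.36 ± 0.12 (SE, adjusted p = 6.75e-06 by edgeR). RAB7B, a small GTPase of late endosomes, lies 954.5 kb away and fell from 1.80 ± 0.14 to 0.721 ± 0.17 CPM (SD, n = 3), and 36.5% of its exonic bases are shared with an antisense gene. The gene called higher was FAM72A, 752.2 kb away, at 0.55 ± 0.13 on the log2 scale (SE), but its near-identical copies elsewhere on the chromosome make its count uncertain. Of the 18 entries with too few reads to test, 5 had every TGF-β1 library below every control library and 1 had the reverse. The first pattern was that of 27.7% of all genes tested, and its share over all entries under the filter was not computed, so these counts are a description. Those 5 were LOC105372879 near FCAMR and, 855.5 to 979.9 kb away, RHEX with 8 control reads and none with TGF-β1, LOC105372857 with 24 and 2, CD34 with 17 and 1, and SLC26A9-AS1 with 44 and 12. The read ratio of LOC105372857 was 12.1-fold lower with a counting interval of 3.01 to 105.7, and that of CD34 17.2-fold lower with an interval of 2.69 to 717.1, so low-count falls of that size were also seen far from FCAMR.

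Within 100 kb of FCAMR the other named entries were barely read. IL20, a cytokine gene near IL24, had 1 read in all control libraries together and none with TGF-β1. LOC105372879 had 3, 4 and 1 counts in control and none with TGF-β1. Against a floor of 3 counts over the group this is 2.69-fold lower, and the counting interval starts at 1.72-fold. LOC107984109 had 1 read in each group. An entry without a gene name, 10.2 kb from the start of FCAMR (chr1:206980896-206982768, 1 exon, no strand given), had 47, 56 and 71 counts in control and 1, 0 and 0 with TGF-β1. This locus, which overlaps no gene of GENCODE v29, had a read ratio of 0.00569 with a counting interval of 0.000143 to 0.0321. Whether it is a transcript of its own was not tested.

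**Figure D2:**
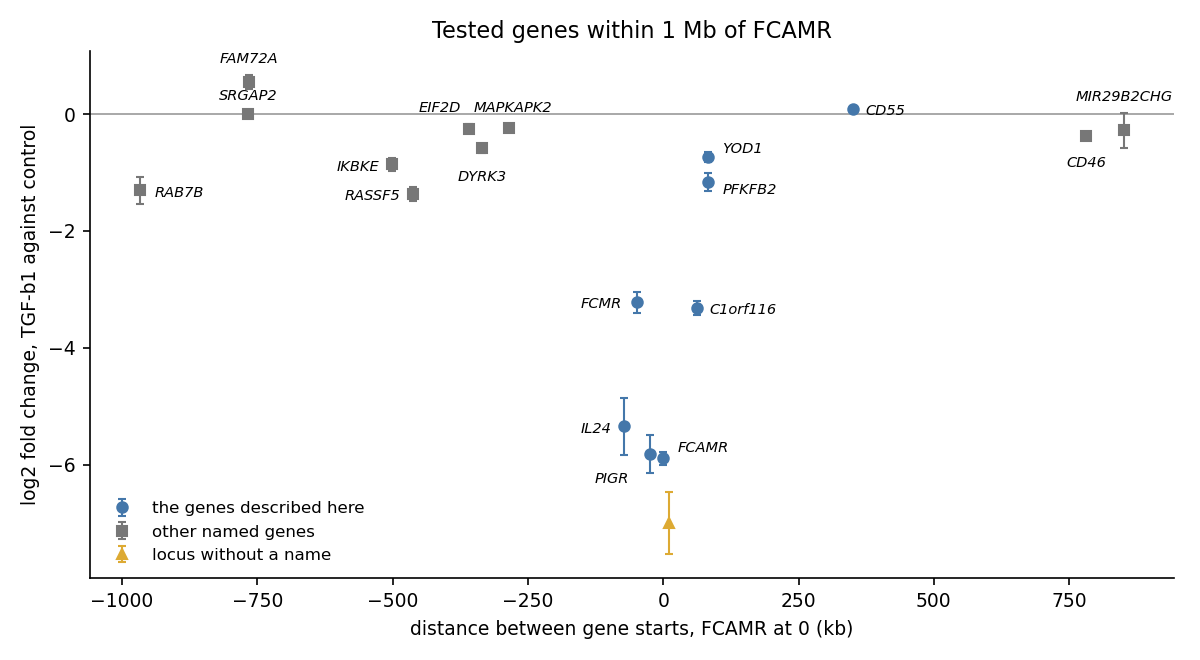
Each point is the log2 fold change of 1 tested gene, TGF-β1 against control, with its SE as the bar, by the distance in kb between its start and that of FCAMR. The deep falls from -3.22 to -5.89 sit between IL24 at -73.3 kb and C1orf116 at 62.1 kb, and the other named genes lie between -1.36 and 0.55, with the locus without a name as a triangle.

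Per length, the order of the genes was rearranged. In control cells YOD1 was the highest at 101.8 ± 1.5 TPM (SD, n = 3), followed by CD55 at 66.4 ± 1.4 TPM and FCAMR at 46.3 ± 2.0 TPM. PFKFB2 at 16.6 ± 0.36 TPM, C1orf116 at 9.04 ± 0.76 TPM and FCMR at 7.96 ± 0.43 TPM came next, and IL24 at 3.18 ± 0.94 TPM and PIGR at 2.66 ± 0.45 TPM after them. FCAMR was therefore the leading immunoglobulin receptor gene of the 3 in control cells by a wide margin. C1orf116 and FCMR overlapped in their ranges over the libraries, as did IL24 and PIGR, and all other neighbours in the order were separate. C4BPB followed at 0.324 ± 0.15 TPM, and C4BPA was at 0.0381 ± 0.066 TPM.

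With TGF-β1, CD55 was the highest at 65.0 ± 0.99 TPM, above YOD1 at 56.3 ± 8.8 TPM and PFKFB2 at 6.90 ± 1.7 TPM. FCAMR, from its place among the 3 highest, dropped to 0.703 ± 0.13 TPM. That was level with C1orf116 at 0.832 ± 0.047 TPM and FCMR at 0.775 ± 0.15 TPM, with overlapping ranges between C1orf116 and FCMR and between FCMR and FCAMR. C4BPB at 0.217 ± 0.057 TPM then stood above IL24 at 0.0616 ± 0.064 TPM and PIGR at 0.0416 ± 0.023 TPM, whose ranges overlapped, and C4BPA was at 0.

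**Figure D3:**
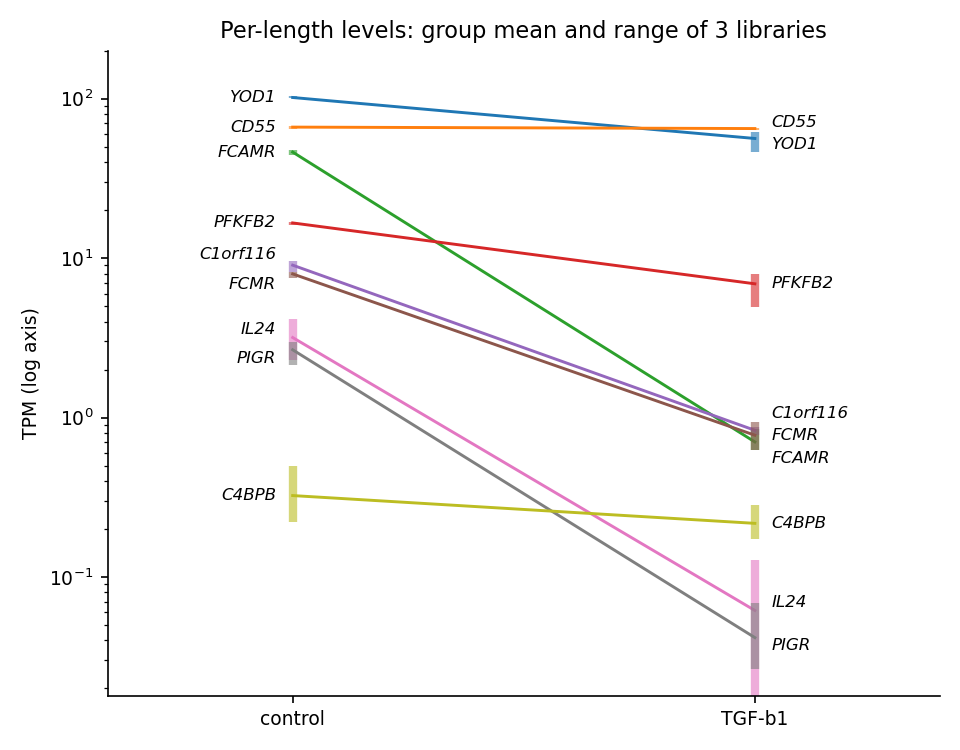
Lines join the group mean TPM of each gene in control and TGF-β1 cells on a log axis, and the vertical bars give the range of the 3 libraries (the bar of IL24 with TGF-β1 runs off the axis because 1 library had no read; C4BPA is not drawn). FCAMR crosses from near CD55 and YOD1 to the level of C1orf116 and FCMR, while CD55 stays at about 65 TPM.

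Among all genes tested, those with a pattern most like FCAMR included 2 of its neighbours. Likeness was the root mean square difference over the 6 libraries between the log2 CPM of a gene and of FCAMR, each after subtracting its own control mean, with a prior count of 2. The nearest gene was PIGR with a difference of 0.862, and IL24 was the third with 1.30. Between and after them came VTCN1, an immune checkpoint ligand of the B7 family, with 1.161, EDN2, an endothelin, with 1.30, and ABCA12, a lipid transporter of epidermal keratinocytes, with 1.33. VTCN1 fell from 105 control reads to none, or 35.3-fold when a floor of 3 counts over the group is set in place of none. EDN2 went from 1.93 ± 0.21 to 0.0522 ± 0.058 CPM and ABCA12 from 28.7 ± 1.6 to 1.81 ± 0.35 CPM (SD, n = 3). C1orf116 was at place 18 and FCMR at 22, whereas PFKFB2 was at 555, YOD1 at 1249 and CD55 at 8908. This is a description of 6 libraries in 2 groups, and any gene with a deep fall ranks high in it.

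The other genes of each pathway were read from 7 lists drawn up from general knowledge. Their counts stand beside the 22.1% called lower and 22.2% called higher over all genes tested, and in such short lists shares near these say nothing particular about a pathway. Of the immunoglobulin receptors and chaperones outside the locus, 7 of 19 were tested, of which 3 were called higher and 1 lower. FCGRT, the chain of the neonatal Fc receptor that binds IgG, fell from 12.7 ± 1.2 to 6.86 ± 0.29 CPM (SD, n = 3), at -0.88 ± 0.10 on the log2 scale (SE, adjusted p = 3.62e-05 by edgeR). The intracellular Fc receptor-like gene FCRLA rose from 0.188 ± 0.12 to 2.00 ± 0.14 CPM, at 3.40 ± 0.34 on the log2 scale (SE, adjusted p = 1.32e-05 by edgeR). JCHAIN, which joins IgA and IgM into the polymers that PIGR carries, rose from 0.314 ± 0.22 to 1.08 ± 0.24 CPM, at 1.78 ± 0.42 (SE, adjusted p = 0.00558 by edgeR), while remaining low. The median log2 fold change of the 7 was 0.32.

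Of 12 genes for transcytosis of polymeric immunoglobulin receptor, 10 were tested, with 3 called lower and 1 higher and a median log2 fold change of -0.0078. RAB3D and RAB3B, small GTPases of secretory and transcytotic vesicles, fell by 0.67 ± 0.08 and 0.67 ± 0.11 on the log2 scale (SE), and RAB5A of early endosomes rose by 0.27 ± 0.05. Of 21 receptors and factors known to induce PIGR, 20 were tested, with 8 called lower and 5 higher and a median of -0.036. IL1R1, the interleukin-1 receptor, fell by 0.81 ± 0.09 on the log2 scale (SE), whereas RELB, an NF-κB subunit, rose by 0.70 ± 0.08 and IFNGR2, a chain of the interferon-gamma receptor, by 0.64 ± 0.12.

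Of 16 IL-20 subfamily cytokines and receptors, 9 were tested and 3 were called lower, with none higher and a median of -0.14. After IL24, the largest fall was that of IL10RA, an interleukin-10 receptor chain, by 1.80 ± 0.41 on the log2 scale (SE). Of 17 complement regulators, 7 were tested, with 3 called lower and 2 higher and a median of 0.082. CFI, the protease that cleaves C3b and C4b, fell by 0.50 ± 0.11, while CLU rose by 0.75 ± 0.09 and CD59 by 0.20 ± 0.05 (SE).

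Of 10 fructose 2,6-bisphosphate enzymes and phosphofructokinases, 8 were tested, with 4 called lower and 2 higher and a median of -0.13. PFKFB3, a paralog of PFKFB2, fell by 0.66 ± 0.06, whereas PFKP, a phosphofructokinase, rose by 0.39 ± 0.06 and TIGAR, a fructose 2,6-bisphosphatase, by 0.30 ± 0.06 (SE). Of 18 OTU deubiquitinases and VCP cofactors, 16 were tested, with 2 called lower and 6 higher and a median of 0.10. YOD1 had the lowest value of that list, ALG13 fell by 0.24 ± 0.06, and OTUD1 rose by 0.91 ± 0.08 and TNFAIP3 by 0.35 ± 0.06 (SE).

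**Figure D4:**
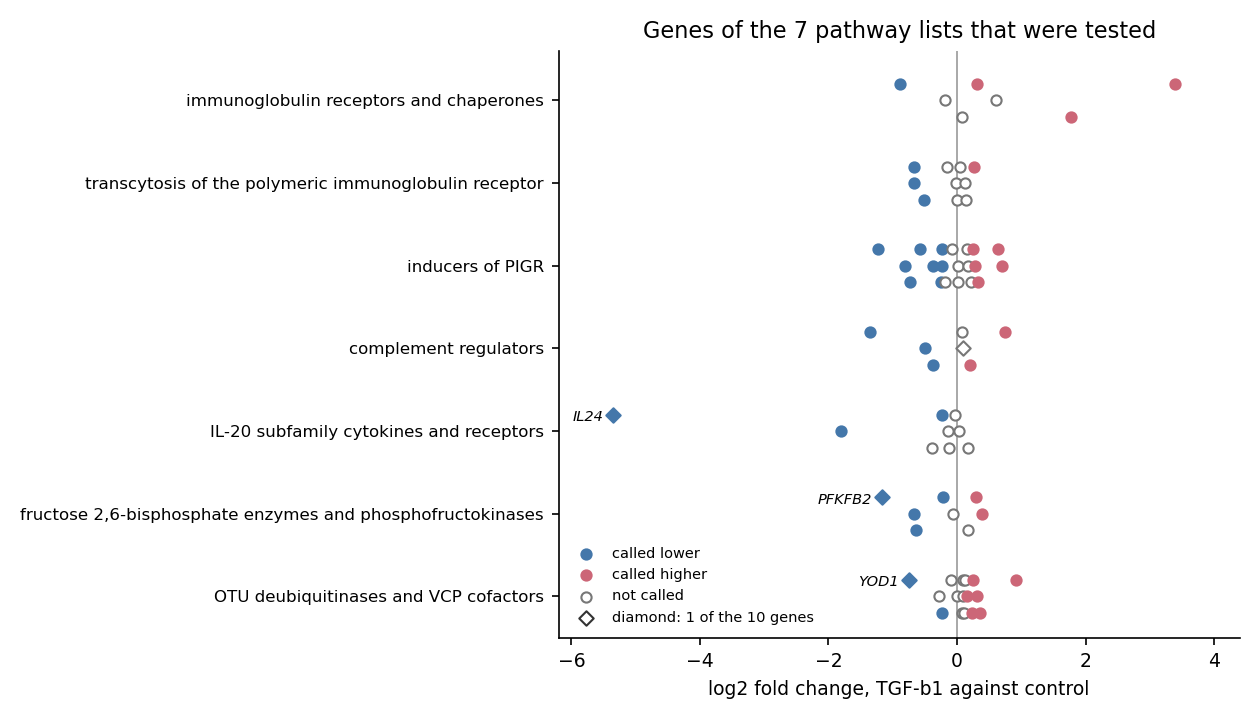
Each symbol is the log2 fold change, TGF-β1 against control, of 1 tested gene in 1 of the 7 lists, filled blue where called lower, red where called higher and open where not called, with diamonds for the genes of the locus, named where called. IL24 at -5.35 lies far from the other genes of its list, while the 7 list medians lie between -0.14 and 0.32.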

How the data were processed

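Poly(A) RNA of 3 control and 3 TGF-β1 HK2 libraries was sequenced as paired-end reads. The authors deposited 1 gene table per library with raw counts, FPKM and TPM for 42095 entries on hg38. The submitters' processing notes name featureCounts 2.0.1, DESeq2 1.16.1 and CASAVA, and the aligner, annotation release and strand setting were not given in the sources used here. The deposited counts were used for all tests, the deposited TPM only to order genes, and the deposited FPKM only to check the table against the counts. Broken records, 7 per table, were rejoined. Entries without a name, 0.396 to 0.464% of counts, were left out of library sizes and of the main fit. The locus beside FCAMR was fitted apart, among the entries without a name, with the library sizes and scaling of the named genes.

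Counts were fitted with edgeR 4.0.16 in R 4.3.3 (TMM, filterByExpr, robust quasi-likelihood, control against TGF-β1), with Benjamini-Hochberg adjustment over 14860 genes. Read ratios carry 95% exact binomial intervals, which cover counting error only. The exact permutation test over libraries was used for the genes under the filter. Alternatives were DESeq2 1.42.0, other scalings and filters, the replicate number as a block and leaving out each library. The text names all 10 genes, neighbours within 1 Mb that were called at least 2-fold or lie within 100 kb, the 2 largest called rises and falls of each list and the 5 genes most like FCAMR. Some genes that this rule names are not reported here. FAM72A, CD22 and the far entries under the filter (RHEX, LOC105372857, CD34, SLC26A9-AS1) were named after their values were seen. The genes and lists were chosen with earlier results of these data known.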

Additional observations from a re-analysis of the deposited data

How the results depend on the processing

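Over 13 alternatives, 101 of 102 values of the 8 tested genes had the direction and call given in the report. The exception was CD55, at -0.0185 instead of 0.09 when libraries were scaled by total counts only, where the median of all genes moved to -0.10. FCAMR ranged from -6.11 to -5.80, PIGR from -6.27 to -5.59, IL24 from -6.18 to -4.89, C1orf116 from -3.42 to -3.27, FCMR from -3.42 to -3.09, PFKFB2 from -1.27 to -0.99 and YOD1 from -0.85 to -0.65. PFKFB2 dropped below 2-fold without TGF-β1 replicate 1. With a mean of at least 50 counts required, PIGR and IL24 were not tested. Leaving out 1 library gave 5333 to 7196 called genes, against 6582, 15 to 16 called genes within 1 Mb with the 10 genes included, against 15, and a C4BPB read ratio of 0.624 to 0.955, against 0.716. The count within 1 Mb moved further with other settings. It was 18 with DESeq2, 20 when all genes with a count were tested and 12 with a mean of at least 50 counts required.

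Deviations of same-numbered libraries from their group means correlated at 0.111, -0.0117 and 0.0762, and those of the other pairs at -0.149 to 0.0883. With 3 libraries per group, such values cannot tell whether the replicate numbers mark shared cultures. With the replicate block 6790 genes were called and the same number of the locus genes, 7, with FCAMR at -5.89 and PFKFB2 at -1.18 (adjusted p = 0.00605 by edgeR). Genes with only a few reads under TGF-β1 have the widest intervals, and their depth limits how far the falls of PIGR, IL24 and FCAMR can be ordered.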

Other observations

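Along chromosome 1, the tested named genes that were called lower formed an unbroken run of 12 around FCAMR, from IKBKE through RASSF5, EIF2D, DYRK3 and MAPKAPK2 to IL24, FCMR, PIGR, FCAMR, C1orf116, YOD1 and PFKFB2. The longest such run elsewhere in the genome held 8 genes. It held 10 with libraries scaled by total counts only, and 10 without TGF-β1 replicate 1. Genes called higher formed 2 runs of 10. The run around FCAMR was looked for after the values had been seen and was given no test. It held 7 genes with DESeq2 and 6 when all genes with a count were tested, where the longest run elsewhere held 8 and 7, and 9 to 12 genes when 1 library was left out. With a limit of 2-fold, the run held the 5 genes IL24, FCMR, PIGR, FCAMR and C1orf116, and 1 longer run of 7 genes was found, on chromosome 19. With a mean of at least 50 counts required, the run of genes lower at least 2-fold held 3.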
